A study of Mus musculus with 2 samples.

Results

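The 6 genes described here are Ifng, which encodes interferon gamma, and 5 genes whose products help to switch it on: the transcription factors Tbx21 (T-bet) and Eomes, the signalling protein Stat4, and the interleukin-18 receptor subunits Il18r1 and Il18rap. They were taken by symbol from the 32285 genes of the deposited count matrices and followed through T cells and innate lymphoid cells of the mouse gut. Those cells were picked by marker genes: 2885 of 9756 kept cells in the CD163_NC library and 6158 of 13715 in the CD163_FL library. All 6 genes were measured in both.

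The study profiled single immune cells of the colon lamina propria, isolated on a Percoll gradient and sorted for CD45, which marks white blood cells, with the 10x 3′ kit V3. There are 2 groups, CD163_NC and CD163_FL, with 1 library each. The series title speaks of wild-type mice and of mice that lack CD163+ macrophages, but no label assigns a genotype, age, strain or number of animals to either library, so only the label names are used. Cd163 itself had 6 UMIs (unique molecular identifiers, each standing for 1 captured RNA molecule) in the myeloid cells of CD163_NC and 5 in those of CD163_FL, which is too few to check the labels.

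Interferon gamma is the signature cytokine of type 1 immunity: it is secreted by Th1 CD4 cells, CD8 T cells, natural killer (NK) cells and ILC1, and it arms macrophages against intracellular microbes. Interleukin-12 from dendritic cells and macrophages acts through STAT4, and interleukin-18 acts through a receptor made of IL18R1, which binds the cytokine, and IL18RAP, which is needed for signalling. Both inputs, together with T-bet and Eomes, which bind T-box elements at the Ifng locus, drive its transcription, and T-bet and STAT4 are also known to act on Il18r1 and Il18rap.

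In mm10 with the GENCODE M21 annotation, Ifng (ENSMUSG00000055170) lies on the plus strand at chr10:118441046-118445892. Tbx21 (ENSMUSG00000001444) is on the minus strand at chr11:97098071-97115331 and Eomes (ENSMUSG00000032446) on the plus strand at chr9:118478212-118486132. Stat4 (ENSMUSG00000062939) lies at chr1:51987148-52107189, plus strand. Il18r1 (ENSMUSG00000026070, chr1:40465552-40500854) and Il18rap (ENSMUSG00000026068, chr1:40515362-40551705) are neighbours in the same orientation, 14507 bases apart with 0 annotated genes between them. An antisense gene, Gm33460, overlaps the end of Eomes and had 8 and 21 UMIs in the gated cells of CD163_NC and CD163_FL.

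The promoter sequences of 4 members are printed because these genes moved in opposite directions between the libraries: Ifng and Tbx21 were lower in CD163_FL, and Il18r1 and Il18rap were higher. The text is RefSeq sequence on GRCm38.p6, written 5′ to 3′ on the strand of the gene. They cover the 250 bases before the start of Ifng (chr10:118440796-118441045), Tbx21 (chr11:97115332-97115581, minus strand) and Il18rap (chr1:40515112-40515361). For Il18r1 the stretch is bases -195 to -37 before its start at 40466006 (chr1:40465811-40465969), where no exon of its other transcripts lies. Capitals mark STAT elements, spelled TTCNNNGAA.
Ifng: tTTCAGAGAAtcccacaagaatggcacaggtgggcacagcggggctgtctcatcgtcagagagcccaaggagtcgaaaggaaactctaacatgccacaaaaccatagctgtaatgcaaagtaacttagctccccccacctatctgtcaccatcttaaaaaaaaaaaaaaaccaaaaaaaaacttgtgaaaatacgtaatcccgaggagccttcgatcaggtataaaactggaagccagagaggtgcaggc
Tbx21: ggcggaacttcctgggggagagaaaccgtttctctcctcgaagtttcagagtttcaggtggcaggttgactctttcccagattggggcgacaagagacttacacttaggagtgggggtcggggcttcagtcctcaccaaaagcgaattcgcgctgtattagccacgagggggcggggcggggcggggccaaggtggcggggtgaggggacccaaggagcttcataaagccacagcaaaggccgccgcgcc
Il18r1: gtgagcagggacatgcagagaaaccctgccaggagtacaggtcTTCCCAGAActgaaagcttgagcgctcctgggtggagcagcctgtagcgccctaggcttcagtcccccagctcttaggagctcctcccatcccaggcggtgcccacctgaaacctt
Il18rap: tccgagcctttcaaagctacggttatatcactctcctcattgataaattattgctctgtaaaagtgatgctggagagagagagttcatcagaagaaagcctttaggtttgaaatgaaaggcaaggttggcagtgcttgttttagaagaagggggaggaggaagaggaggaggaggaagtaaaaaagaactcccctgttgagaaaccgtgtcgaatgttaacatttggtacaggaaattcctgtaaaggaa
Windows from 250 bases before to 50 after each start were searched on both strands for the STAT element and for the T-box core AGGTGT. The STAT letters stood once in the Ifng window, at base -249 (TTCAGAGAA). In the Il18r1 window at that start they stood at bases -219 (TTCTGGGAA) and -152 (TTCCCAGAA), of which the first lies in an exon of another transcript and is not printed. Of 32851 such windows in the RefSeq table, 8.30% held the STAT letters and 13.7% the T-box core, which was in no window of the 6 members. These matches describe the letters only.

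Gates were set per cell from raw UMIs. T cells had Cd3e and at least 2 UMIs of Cd3d, Cd3e and Cd3g, and were divided by Cd4, Cd8a, Cd8b1, Trdc, Foxp3 and type 17 genes. CD4 and CD8αβ cells with at least 3 summed UMIs of a short gene list that includes Ccr7 and Lef1 form a gate each, called Lef1-gated here. Lef1 was in 92.9% to 96.9% of these cells in both libraries. They are not called naive because in CD163_FL Cd44, a marker of activated and memory cells, was in 81.9% of the CD4 and 74.2% of the CD8αβ cells of these gates. In CD163_NC, Cd44 was in 57.7% and 36.1%. Innate cells lacked Cd3e and Trac and were divided by NK and ILC1 genes (Ncr1, Klrb1c, Klre1, Klrd1), ILC2 genes and ILC3 genes. Of 13 gates, 8 had at least 100 cells in each library, and counts over gates refer to these.

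The libraries differed in depth and makeup. CD163_NC held 94729872 UMIs in 10390 barcodes and CD163_FL 131306539 in 15270, and 7 barcodes were shared among gated cells. Gated cells had a median of 5860 UMIs in CD163_NC and 7046 in CD163_FL, and 8.84% and 17.2% of them were cycling (at least 2 UMIs of Mki67 and Top2a). Signs of free RNA were higher in CD163_NC: immunoglobulin UMIs made up 9063 CPM of the gated cells against 5453 CPM, 4 B cell genes 31.4 against 10.4, 6 myeloid genes 31.6 against 17.9 and 3 epithelial genes 28.8 against 9.64, with none of these at 0. Their part in the results was not tested. CPM here means counts per 1000000 summed UMIs of a gate. Its 95% intervals are exact Poisson intervals, and those of ratios are exact conditional binomial intervals. Every interval describes counting error alone. Each group being a single library, variation among mice could not be estimated, no test was run, and ratios set library against library. A gene was called higher or lower past 1.5-fold, given at least 20 UMIs over both libraries.

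Over all gated cells, 3 members were called higher in CD163_FL (Eomes, Il18r1 and Il18rap) and 2 lower (Ifng and Tbx21). Of 15048 genes measured there, 11.2% were called higher and 21.6% lower. Ifng stood at 371.7 CPM in CD163_NC and 230.4 CPM in CD163_FL, a ratio of 0.620 (95% interval 0.602 to 0.639). Tbx21 stood at 160.5 and 73.4 CPM, a ratio of 0.457 (0.435 to 0.480). Both type 1 hallmarks thus took a smaller part of the UMIs in CD163_FL. With no exclusion of cells that carry genes of other lineages, the log2 ratio of Ifng was -0.44 in place of -0.69 and no longer past 1.5-fold. Eomes was at 19.8 and 32.6 CPM, a ratio of 1.65 (1.47 to 1.85). Stat4 was at 692.0 and 894.2 CPM, a ratio of 1.29 (1.27 to 1.32), within the 1.5-fold limit. The receptor pair moved furthest: Il18r1 went from 233.9 to 644.0 CPM (ratio 2.75, 2.67 to 2.84) and Il18rap from 142.8 to 330.1 CPM (ratio 2.31, 2.22 to 2.41).

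**Figure D1:**
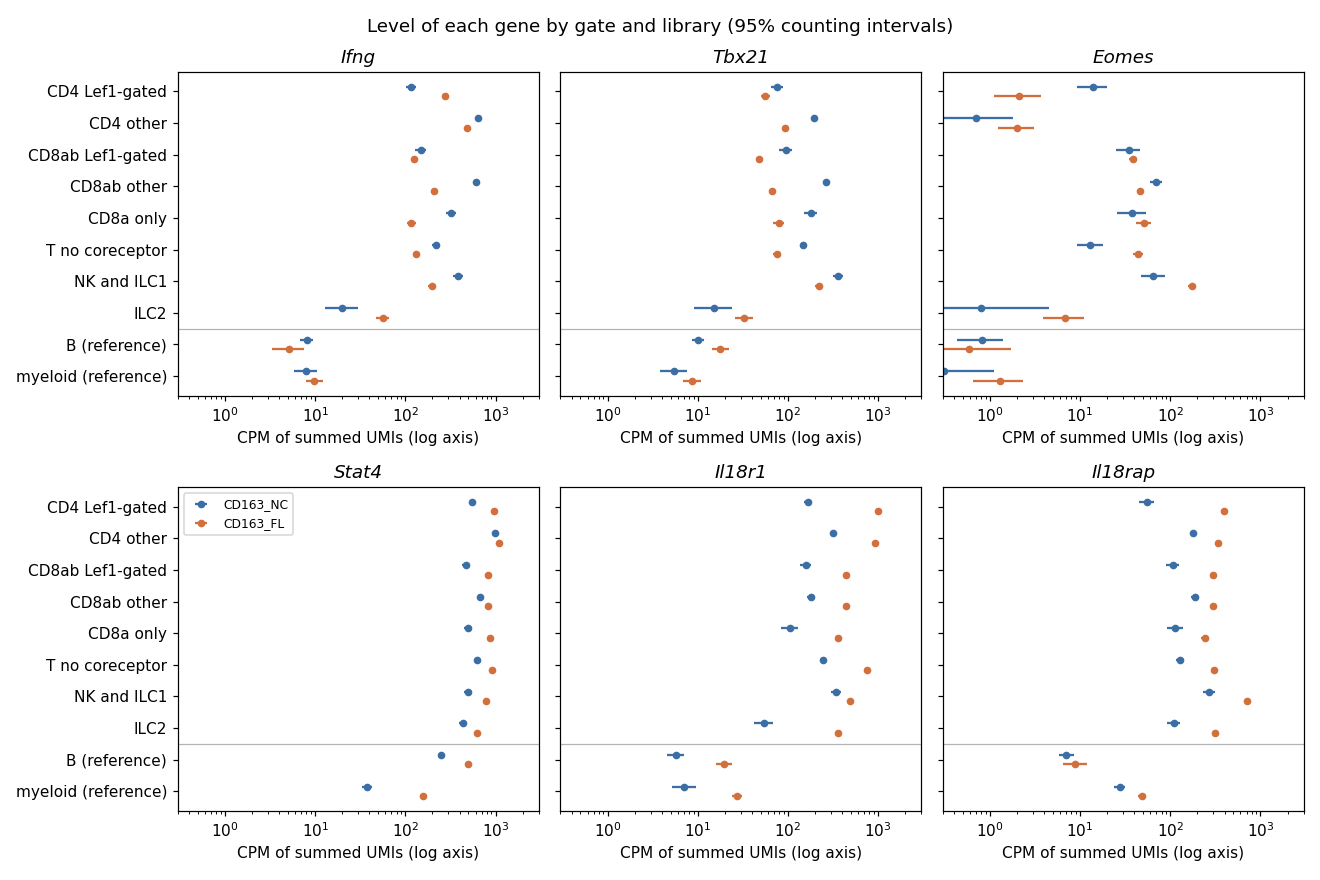
Level of each of the 6 genes (CPM of summed UMIs, log axis) in the 8 gates with at least 100 cells in each library and in the B cell and myeloid reference gates, with 95% Poisson intervals. Points are single libraries, CD163_NC in blue and CD163_FL in orange; Il18r1 and Il18rap are to the right in CD163_FL in all 8 gates, and Tbx21 is to the left in 7 of 8.

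The gates held different shares of the cells in each library. CD8αβ cells of the Lef1-gated kind made up 6.24% of gated cells in CD163_NC and 15.0% in CD163_FL, and the CD4 other gate made up 30.1% and 19.2%. The Lef1 gate is set on raw UMIs, so deeper cells enter it more easily. Its CD8αβ cells had medians of 6982 and 9674 UMIs, against 5708 and 7804 in CD8αβ other cells. The part of depth in these shares was not tested. With the gates of both libraries set to the same pooled makeup and each cell weighted equally, the log2 ratio was -0.89 for Ifng, against -1.01 at each library's own makeup. Tbx21 stood at -1.12 against -1.13, Stat4 at 0.44 against 0.36, Il18r1 at 1.58 against 1.47 and Il18rap at 1.20 against 1.21. Eomes differed: 0.40 against 0.81, so that its pooled call did not hold at one makeup. Putting the CD163_FL makeup on the CD163_NC levels gave Eomes a log2 ratio of 0.47 and Ifng one of -0.10.

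Ifng was highest in the same CD4 gate in both libraries, but its order below that differed. In CD163_NC the CD4 other gate (CD4 cells with neither Foxp3, type 17 genes nor the Lef1 gate) stood at 646.4 CPM (625.7 to 667.6). The CD8αβ other gate followed at 612.3 CPM (580.9 to 645.0), and the intervals of these gates overlapped. Below them, NK and ILC1 cells were at 383.3 CPM, CD8α-only T cells at 320.0 and T cells without a detected coreceptor at 216.1, with the CD8αβ and CD4 Lef1-gated cells at 148.5 and 115.5 and ILC2 lowest at 20.0. In CD163_FL the CD4 other gate stood at 479.6 CPM (466.1 to 493.4), and the small CD4 type 17 gate (77 cells) overlapped it at 444.9 CPM. The CD4 Lef1-gated cells came next at 272.2 CPM, above CD8αβ other at 206.5 and NK and ILC1 at 197.2, whose intervals overlapped. In these orders the NK and ILC1 gate includes cells with dendritic cell genes, described below. Without them it stood at 645.5 CPM in CD163_NC, close to the CD4 other gate. In CD163_FL it then stood at 276.3 CPM, close to the CD4 Lef1-gated cells. CD4 other cells held 52.7% of the gated Ifng UMIs of CD163_NC and 41.0% of those of CD163_FL.

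Ifng was lower in CD163_FL in 4 of 8 gates and higher in 2. Of 7614 genes measured in all 8 gates, 9.85% were called lower in at least 4 of them. The ratio was smallest in CD8αβ other cells, at 0.337 (0.315 to 0.361), and next in CD8α-only cells, where 320.0 CPM stood against 116.8 (ratio 0.365, 0.306 to 0.435). NK and ILC1 cells gave 0.515 (0.440 to 0.603), and T cells without a coreceptor, at 216.1 and 130.3 CPM, gave 0.603 (0.540 to 0.674). CD4 other cells, at 0.742 (0.711 to 0.775), and CD8αβ Lef1-gated cells, at 148.5 and 125.6 CPM and 0.846 (0.729 to 0.985), stayed within 1.5-fold. The opposite direction was seen in CD4 Lef1-gated cells, at 115.5 and 272.2 CPM and a ratio of 2.36 (2.06 to 2.71). ILC2 also had more, 25 UMIs (20.0 CPM) against 134 (56.2 CPM), a ratio of 2.81 (1.83 to 4.50). A single ILC2-gated cell held 12 of those 25 UMIs, and another 50 of the 134. Markers of other lymphocytes were also in more cells of the ILC2 gate of CD163_FL: Cd4 in 1.55% and 7.88%, Cd8a in 0% and 3.84%, Cd8b1 in 0.516% and 4.24% and Klrd1 in 0.516% and 5.45%, with the granzyme gene Gzma at 2 and 129 UMIs. Their part in the ILC2 values was not tested. With gates and levels taken from cells thinned to 2000 UMIs, the ILC2 log2 ratio was -0.041 in place of 1.49, and with no UMI of the exclusion lists allowed it was 0.56. From thinned cells the CD4 Lef1-gated log2 ratio was 0.36 in place of 1.24, no longer past 1.5-fold, while those of CD4 other (-0.89 in place of -0.43) and CD8αβ Lef1-gated cells (-2.82 in place of -0.24) came to lie past it.

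**Figure D2:**
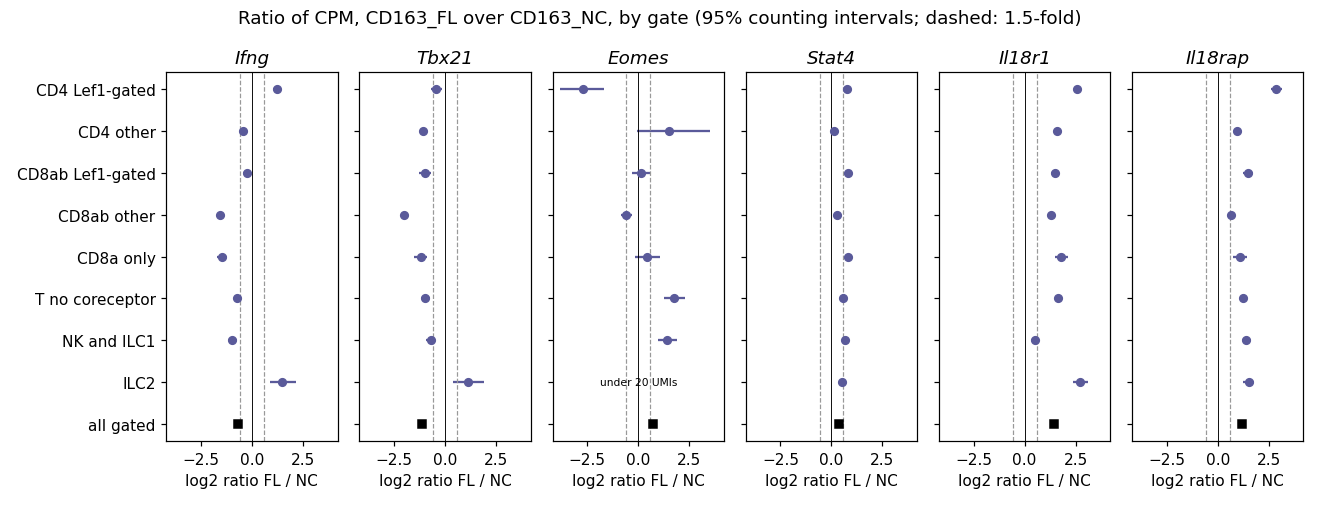
Log2 ratio of CPM, CD163_FL over CD163_NC, for each gene in the 8 gates (circles) and over all gated cells (squares), with 95% counting intervals and dashed lines at 1.5-fold. Ifng lies on both sides of 0 (from -1.57 in CD8αβ other to 1.49 in ILC2), while every Il18r1 and Il18rap value lies to the right.

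The share of cells with an Ifng UMI was counted as well. It falls both when fewer cells contain Ifng RNA and when each holds less, and cannot tell these apart. After thinning each cell to 2000 UMIs, 28.6% of gated cells of CD163_NC and 21.0% of CD163_FL had an Ifng UMI, a ratio of 0.733 (log-normal interval 0.680 to 0.791). Without thinning the shares were 42.5% and 41.5%, a ratio of 0.977. B cells, which should lack Ifng, had it in 1.33% and 1.08% of thinned cells, at median depths of 5527 and 4573 UMIs. In CD8αβ other cells the thinned share was 48.5% in CD163_NC and 22.2% in CD163_FL. In the NK and ILC1 gate, including its cells with dendritic cell genes, the shares were 33.0% (34 of 103 cells) and 31.4% (97 of 309), with overlapping intervals. CD4 Lef1-gated cells had it in 8.99% and 22.9%.

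Cells rich in Ifng were fewer in CD163_FL. At least 5 Ifng UMIs per 2000 were found in 4.50% (3.77 to 5.33, Clopper-Pearson) of gated cells in CD163_NC and in 1.20% (0.944 to 1.51) in CD163_FL. In CD8αβ other cells these shares were 8.03% and 1.19%, and in CD4 other cells 7.99% and 3.39%. Among NK and ILC1 cells 4 such cells were found of 103 in CD163_NC and 3 of 309 in CD163_FL. Yet single cells of CD163_FL reached higher: the largest held 208 Ifng UMIs, against 71 in CD163_NC. The top 1% of gated cells held 29.8% of Ifng UMIs in CD163_FL and 17.6% in CD163_NC. In CD163_NC the richest 5.89% of cells (170 cells) held 50% of its Ifng UMIs, and in CD163_FL the richest 3.56% (219 cells) did. These totals follow unthinned depth. By comparison, the richest cells needed for 50% of Stat4 UMIs were 15.6% and 19.7% of gated cells.

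**Figure D3:**
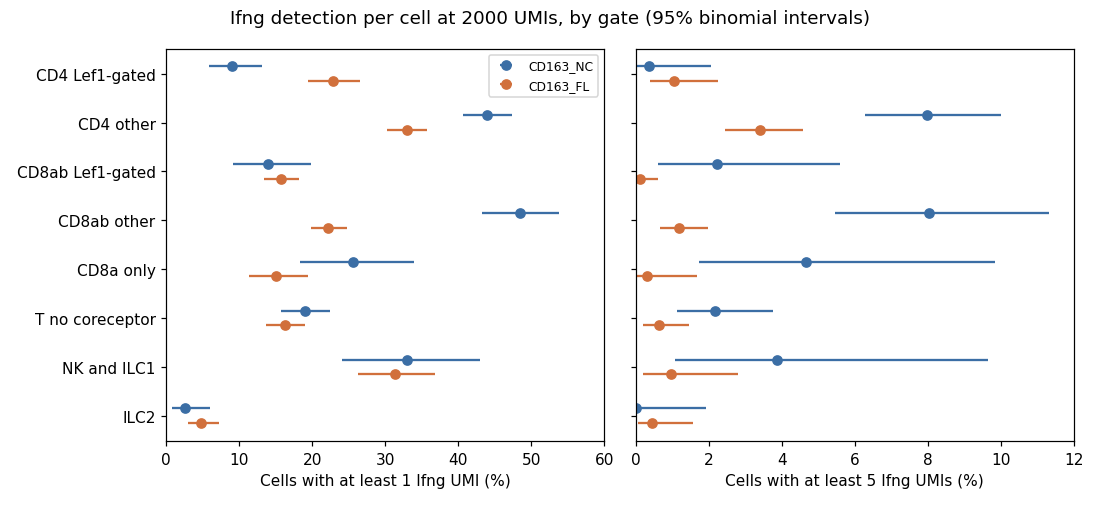
Share of cells with at least 1 (left) and at least 5 (right) Ifng UMIs after thinning each cell to 2000 UMIs, in percent, by gate and library, with 95% Clopper-Pearson intervals. The CD8αβ other gate is at 48.5% in CD163_NC and 22.2% in CD163_FL on the left, while the NK and ILC1 intervals overlap.

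Tbx21, the master regulator of Th1 cells and ILC1, was lower in CD163_FL in 6 of 8 gates. Being lower in at least 6 of 8 gates was found for 4.23% of the 7614 genes. Its highest level was in NK and ILC1 cells of both libraries, at 360.2 CPM in CD163_NC and 222.1 in CD163_FL, a ratio of 0.617 (0.527 to 0.722). CD8αβ other cells ranked next in CD163_NC, at 266.9 CPM, but in CD163_FL stood at 67.0 CPM, below the CD4 other gate (92.8 CPM). Their ratio, 0.251 (0.225 to 0.280), was the smallest of the 8 gates. CD4 other cells had 195.6 and 92.8 CPM (0.474, 0.434 to 0.518), and the CD8αβ Lef1-gated, CD8α-only and coreceptor-negative T cells gave ratios of 0.508, 0.437 and 0.513. With no UMI of the exclusion lists allowed, the CD8αβ Lef1-gated log2 ratio was -0.48 in place of -0.98. CD4 Lef1-gated cells, with 76.2 and 56.4 CPM, stayed within 1.5-fold (0.740, 0.610 to 0.901). The only higher gate was ILC2, from 19 UMIs to 78 (15.2 and 32.7 CPM), and its log2 ratio changed from 1.11 to -0.44 when gates and levels came from thinned cells.

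Eomes, the T-box factor of mature NK cells and memory CD8 cells, was highest in CD8 and NK gates. In CD163_NC it was highest in CD8αβ other cells (69.9 CPM, 59.5 to 81.5) and NK and ILC1 cells (64.8 CPM, 47.3 to 86.8), whose intervals overlapped, and in CD163_FL in NK and ILC1 cells (172.8 CPM, 155.3 to 191.8). The NK and ILC1 ratio was 2.67 (1.95 to 3.72). Coreceptor-negative T cells went from 40 UMIs to 212 (44.0 CPM in CD163_FL; ratio 3.39, 2.41 to 4.87), with a log2 ratio of 1.76 that was 0.51 from thinned cells. CD8αβ other cells had 69.9 and 46.6 CPM, a ratio of 0.667 (0.557 to 0.802) at the edge of the limit. From thinned cells their log2 ratio was 0.13 in place of -0.58, and that of CD8α-only cells 1.61 in place of 0.42. CD4 Lef1-gated cells had 29 UMIs against 12 (13.9 and 2.12 CPM, ratio 0.152, 0.0708 to 0.308). CD4 other cells had only 4 UMIs against 20 (2.87, 0.962 to 11.6), and ILC2, with 1 and 16 UMIs, were under the count needed. Of the 7 gates measured, 3 were called higher and 1 lower. The CD4 other gate, whose interval included a ratio of 1, was among those called higher. The share of all genes that reach these counts was not computed.

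T-bet and Eomes define subsets of innate type 1 cells, ILC1 being T-bet positive without Eomes and NK cells having both. After thinning, the NK and ILC1 gate had Tbx21 without Eomes in 42.7% (33.0 to 52.9) of cells in CD163_NC and 19.4% (15.2 to 24.3) in CD163_FL. Both genes were found together in 5.83% (2.17 to 12.3) and 13.9% (10.3 to 18.3), and Eomes alone in 4.85% (5 of 103 cells) and 15.2% (47 of 309). Neither was found in 46.6% and 51.5%. A missed UMI and a silent gene cannot be told apart in such shares. They also include the cells with dendritic cell genes described next, whose part in them was not tested.

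The NK and ILC1 gate also held cells with dendritic cell genes. In CD163_NC, 30 of 106 cells (28.3%), and in CD163_FL, 66 of 319 (20.7%), had over 2 UMIs of Flt3, Xcr1, Clec9a, Fscn1, Zbtb46 and Siglech or over 20 of H2-Aa and H2-Ab1. Those 6 genes summed to 393.4 and 224.5 CPM in the gate, with 1 of 6 at 0 in CD163_NC and 0 in CD163_FL. Without these cells Ifng was at 645.5 and 276.3 CPM, Tbx21 at 579.0 and 299.6, and Eomes at 103.5 and 243.9. Stat4 was at 657.9 and 937.3 CPM, Il18r1 at 564.2 and 704.6, and Il18rap at 401.6 and 1009. No direction changed. The log2 ratio of Ifng was -1.22 in place of -0.96, and that of Stat4 0.51 in place of 0.69, no longer past 1.5-fold.

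Stat4, which carries the interleukin-12 signal to the nucleus, was higher in CD163_FL in 4 of 8 gates and within 1.5-fold in the other 4. Of all genes measured in the 8 gates, 11.6% were called higher in at least 4. Its level was the most even of the 6 across gates: in CD163_NC from 431.3 CPM (ILC2) to 992.4 CPM (CD4 other), and in CD163_FL from 616.2 to 1081 CPM in the same gates. The gates called higher were CD8α-only cells (494.6 and 873.7 CPM, 1.77, 1.58 to 1.97), CD8αβ Lef1-gated cells (1.75), CD4 Lef1-gated cells (1.72) and NK and ILC1 cells (492.8 and 793.7 CPM, 1.61, 1.43 to 1.81). In CD4 other cells the ratio was 1.09 (1.05 to 1.13). The same direction was seen outside the lymphoid gates: B cells had 249.4 and 494.0 CPM of Stat4, plasma cells 90.8 and 151.8, and myeloid cells 38.0 and 155.0. With the B cell level of the same library subtracted, the pooled log2 ratio of Stat4 was -0.14 in place of 0.37, that of NK and ILC1 cells 0.30 in place of 0.69 and that of CD8αβ Lef1-gated cells 0.57 in place of 0.81. With no lineage exclusion the pooled value was 0.66, past the limit, and with no UMI of the exclusion lists allowed CD8α-only cells were at 0.52 in place of 0.82.

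Il18r1 was higher in CD163_FL in 7 of 8 gates, and 2.30% of genes reached at least 7. The cytokine-binding subunit was at 313.6 CPM in CD4 other cells of CD163_NC and 935.6 in CD163_FL (2.98, 2.84 to 3.14). CD4 Lef1-gated cells had 168.8 and 998.8 CPM (5.92, 5.31 to 6.61), and ILC2 54.4 and 357.6 CPM (6.57, 5.13 to 8.54). The CD8 gates ranged from a ratio of 2.44 (CD8αβ other, 180.2 and 439.0 CPM) to 3.47 (CD8α only, 105.0 and 364.2 CPM), and coreceptor-negative T cells gave 3.12. NK and ILC1 cells, at 344.4 and 487.1 CPM, were within the limit (1.41, 1.23 to 1.64). From thinned cells their log2 ratio was 1.28 in place of 0.50, and that of CD8αβ Lef1-gated cells 3.47. Against the CD4 other gate these innate cells overlapped in CD163_NC and were lower in CD163_FL. Without the cells that carry dendritic cell genes, the NK and ILC1 gate stood at 564.2 and 704.6 CPM. That is above the CD4 other gate in CD163_NC and below it in CD163_FL. Among all 13 gates the highest values were in small type 17 gates: 621.9 and 1065 CPM in CD4 type 17 cells (42 and 77 cells) and 566.0 and 1067 CPM in γδ type 17 cells (19 and 42 cells). Their intervals overlapped ILC3 in CD163_NC (525.1 CPM, 19 cells) and CD4 Lef1-gated cells in CD163_FL.

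Il18rap, the signalling subunit, was called higher in all 8 gates, as were 0.972% of genes. NK and ILC1 cells were highest in both libraries, at 269.4 CPM (232.2 to 310.9) in CD163_NC, overlapping ILC3 (251.4 CPM, 19 cells), and 706.3 CPM (670.4 to 743.6) in CD163_FL, a ratio of 2.62 (2.25 to 3.07). CD4 Lef1-gated cells moved furthest, from 54.7 to 396.4 CPM (7.25, 6.01 to 8.83). CD4 other cells stood at 180.1 and 341.3 CPM (1.89, 1.77 to 2.03), and ILC2 at 108.8 and 311.0 CPM (2.86, 2.38 to 3.46). The smallest ratio was in CD8αβ other cells, at 187.1 and 296.4 CPM (1.58, 1.43 to 1.76), a log2 ratio of 0.66. It was 0.55 without cycling cells, 0.58 from thinned cells and 0.51 as a mean over cells, under the limit in each. In that same gate Ifng and Tbx21 had their smallest ratios. B cells, for comparison, had Il18r1 at 5.68 and 19.7 CPM and Il18rap at 7.05 and 8.86 CPM. Both were under each of the 13 lymphoid gates of the same library. Plasma cells had 3.81 and 14.4 CPM and 2.68 and 8.11 CPM. At these low levels Il18r1 was also higher in CD163_FL, with ratios of 3.47 in B cells, 3.78 in plasma cells and 3.86 in myeloid cells. The ratios of Il18rap there were 1.26, within 1.5-fold, 3.02 and 1.75. The rise of Il18r1 was thus not limited to the lymphoid gates.

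Since both subunits are needed for signalling, their joint detection was counted at 2000 UMIs per cell. Both were found in 9.18% (8.15 to 10.3) of gated cells of CD163_NC and in 25.1% (24.0 to 26.2) of CD163_FL. The share with neither was 63.0% and 36.2%. CD4 Lef1-gated cells had both in 4.49% and 36.5%, CD4 other cells in 12.2% and 33.1%, NK and ILC1 cells in 18.4% and 36.9%, and CD8αβ other cells in 8.59% and 19.7%. ILC2 had both in 2 of 190 cells of CD163_NC and 65 of 459 of CD163_FL. Among gated cells with Il18r1, 35.8% in CD163_NC and 51.4% in CD163_FL also had Il18rap, against 15.2% and 29.4% of cells without it.

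**Figure D4:**
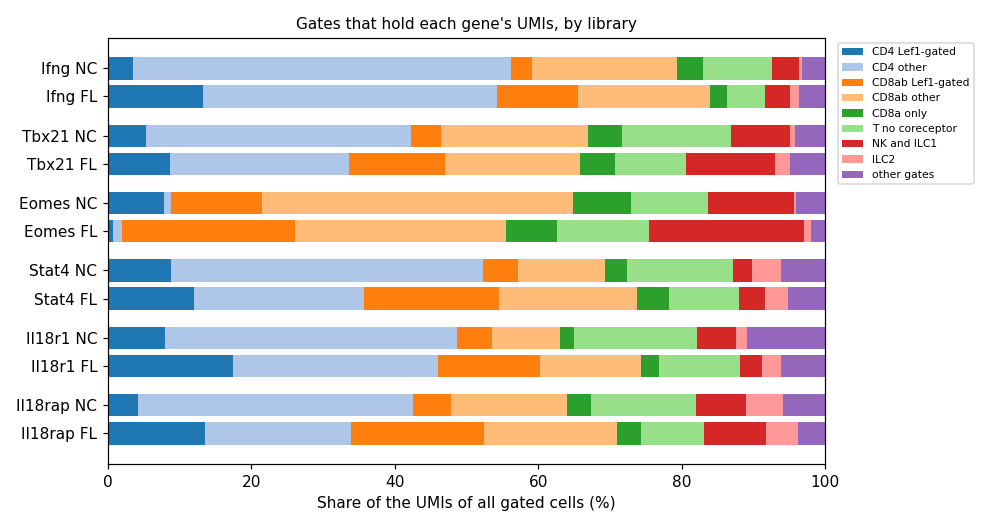
Share of each gene's gated UMIs (percent, bars to 100%) held by each gate, for CD163_NC and CD163_FL. CD4 other cells hold 52.7% and 41.0% of Ifng UMIs, and NK and ILC1 cells are a large part for Eomes in CD163_FL.

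Ifng was next read against its regulators in the same cell. At 2000 UMIs per cell, CD163_NC cells with a Tbx21 UMI had Ifng in 46.2% (42.3 to 50.1) and those without in 23.3% (21.6 to 25.2), a ratio of 1.98. In CD163_FL the shares were 29.2% (25.9 to 32.6) and 19.8% (18.8 to 20.9), a ratio of 1.47. For Il18rap they were 44.5% and 24.5% in CD163_NC and 25.0% and 18.2% in CD163_FL. Il18r1 gave 37.5% and 25.5%, and 24.1% and 18.0%. Stat4 gave 33.9% with and 20.7% without in CD163_NC, but 21.3% and 20.0% in CD163_FL. Eomes, the rarest, gave 38.4% and 28.4% in CD163_NC and 27.8% and 20.6% in CD163_FL. Over all gated cells, with each of the 5 regulators the share was higher in cells that had it, in both libraries, though for Eomes in CD163_NC and Stat4 in CD163_FL the intervals overlapped. Whether these gaps differ between the libraries beyond animals cannot be tested with 1 library each, and gates with much Ifng also have much Tbx21.

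Within single gates the gap varied. CD8αβ other cells had Ifng in 60.3% with and 42.1% without Tbx21 in CD163_NC, and in 45 of 150 and 216 of 1025 cells in CD163_FL. In CD4 other cells the pairs were 50.6% and 41.4%, and 36.5% and 32.4%. The NK and ILC1 gate showed 48.0% (24 of 50 cells) and 18.9% (10 of 53) in CD163_NC, and 35.0% and 29.6% in CD163_FL. There Il18rap gave 39.3% (32.1 to 46.9) and 20.6% (14.0 to 28.6) in CD163_FL. Cells with dendritic cell genes were kept in this gate, and their part in these gaps was not tested. In CD8αβ other cells of CD163_FL, Il18r1 (22.1% and 22.3%) and Il18rap (22.4% and 22.1%) gave shares with and without that differed by less than their intervals. In the same gate of CD163_NC the Ifng share was lower with Il18r1 (41.7%, 35 of 84 cells) than without (50.5%, 140 of 277), and in CD4 other cells of CD163_FL it was lower with Stat4 (32.1%) than without (36.4%), in both cases with overlapping intervals.

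The regulators were then counted in each cell, over all gated cells, which mixes the gates. Cells with 0 of the 5 other genes had Ifng in 12.1% of cases in CD163_NC and 13.7% in CD163_FL, with overlapping intervals. With 1 gene the shares were 23.1% and 16.9%, with 2 genes 41.2% and 22.1%, and with 3 genes 50.3% and 26.5%. Cells with 4 or more had 43.3% (67 cells, 31.2 to 56.0) and 31.8% (217 cells, 25.7 to 38.4). So at 1, 2 and 3 regulators the CD163_FL share lay below that of CD163_NC without overlap of intervals, and at 0 and at 4 or more the intervals overlapped. An equal count can stand for different genes in the 2 libraries. Tbx21 was detected in 656 cells and not in 2186 in CD163_NC, against 734 and 5336 in CD163_FL. For Il18r1 these numbers were 730 and 2112, against 2960 and 3110. The part of this difference in the shares was not tested. Within gates the course differed. In CD163_FL, CD4 other cells had Ifng in 36.4%, 31.9%, 30.2% and 37.4% at 0, 1, 2 and 3 regulators, and CD8αβ other cells in 21.4%, 22.2%, 21.5% and 22.6%, with no rise beyond the intervals. Coreceptor-negative T cells of CD163_FL rose from 6.96% (3.05 to 13.25) at 0 to 25.4% (19.2 to 32.5) at 3. The NK and ILC1 gate rose there from 7.69% (0.946 to 25.1) to 40.3% (29.2 to 52.1). That gate includes the cells with dendritic cell genes, and their part in this rise was not tested. For CD8αβ Lef1-gated, CD8α-only and ILC2 cells of that library the intervals at 0 and 3 overlapped. In CD163_NC the CD4 other shares were 33.6%, 35.4%, 52.8% and 55.5%, and the CD8αβ other shares 33.3%, 45.8%, 53.1% and 57.4%. CD4 Lef1-gated cells went, with overlapping intervals, from 1.98% to 23.1% (3 of 13 cells) in CD163_NC and from 11.3% to 28.7% in CD163_FL, where the share was above that of CD163_NC at each count from 0 to 3 but within the intervals.

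**Figure D5:**
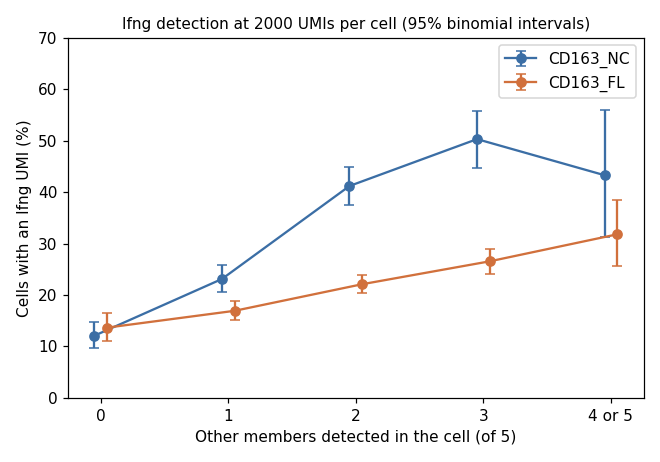
Share of gated cells, all gates together, with an Ifng UMI (percent, each cell thinned to 2000 UMIs) by how many of the 5 other genes were detected in the same cell, with 95% Clopper-Pearson intervals. Both lines start near 12% to 14%, and CD163_NC reaches 50.3% at 3 genes and CD163_FL 26.5%. An equal count can stand for different genes in the libraries.

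Over 24 profiles (gates with at least 20 cells, by library), which share their libraries and depth, log2(CPM + 1) of Ifng correlated most with Tbx21 among the members (Pearson r = 0.75), with 0.84 over the 11 profiles of CD163_NC and 0.61 over the 13 of CD163_FL. With Stat4 it had r = 0.71 in CD163_NC and 0.23 in CD163_FL, and with Il18r1 0.71 and 0.11. Il18r1 and Il18rap had r = 0.72 over all profiles but 0.43 and 0.03 within the libraries. Among 9558 other genes, the profiles most like Ifng were those of Atxn2l (0.79), Ms4a4b (0.79) and Wipf1 (0.78), and those most like Tbx21 were Ms4a4c (0.83), Ccl3 (0.83) and Ccl4 (0.82). For Eomes they were Samd3 (0.90), Itgax (0.89) and Heatr9 (0.85), for Stat4 Wipf2 (0.88), Kctd10 (0.87) and Celf2 (0.87). Il18r1 was closest to Inf2 (0.90), Celf2 (0.89) and Nfkb2 (0.86), and Il18rap to Ptpn3 (0.89), Mir22hg (0.86) and Tab2 (0.85).

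Other genes of the pathway were read from 6 lists. Of 23 other receptors and signalling genes upstream of Ifng, 3 were higher and 3 lower over all gated cells, with a median log2 ratio of -0.06 against -0.05 for all genes measured. Of all genes measured there, 11.2% were called higher and 21.6% lower. The higher ones included Il12rb2, the signalling chain of the interleukin-12 receptor (242.3 and 417.8 CPM, 1.72, 1.67 to 1.78), and Stat3 (927.4 and 1631 CPM, 1.76). The stress-induced genes Gadd45b (768.3 and 289.8 CPM, 0.377) and Gadd45g (47.1 and 19.4 CPM, 0.411), whose products support Ifng transcription after interleukin-12 and interleukin-18, were lower, as was the interleukin-27 receptor gene Il27ra (0.541). In CD4 Lef1-gated cells Il12rb2 went from 187.0 to 566.3 CPM (3.03, 2.73 to 3.37), and in ILC2 from 9 UMIs to 178. Of 10 other type 1 transcription factors, 1 was higher, Zeb2 (137.0 and 377.3 CPM, 2.75), and 1 lower, Irf1 (237.0 and 146.5 CPM, 0.618), with a median of 0.10.

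Type 1 effector genes did not move as one. Over all gated cells 6 of 19 were higher and 5 lower, with a median log2 ratio of 0.22. Of all genes measured there, 11.2% were called higher and 21.6% lower, with a median of -0.05. Gzmk (31.6 and 102.8 CPM, 3.25), Cxcr6 (135.9 and 396.2 CPM, 2.91) and the pore-forming Prf1 (24.1 and 59.9 CPM, 2.48) were higher. The cytokine genes Tnf (82.6 and 23.9 CPM, 0.289), Lta (7.50 and 2.68 CPM, 0.357) and Csf2 (61.3 and 26.9 CPM, 0.439) were lower with Ifng. In CD4 other cells 7 were higher and 6 lower, where 11.2% of all genes were called higher and 16.9% lower. CD8αβ other cells had 2 higher and 7 lower of 18, with backgrounds of 16.0% and 16.1%: Xcl1 (0.151), Tnf (0.176) and Ccl3 (0.220) were the lowest. In NK and ILC1 cells there were 6 higher and 4 lower of 16, with backgrounds of 15.6% and 22.9%. Prf1 stood there at 203.2 and 613.5 CPM (3.02) and Gzma at 720.4 and 2017 CPM (2.80), beside the lower Ifng.

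Genes that respond to interferon gamma split as well: 4 of 18 were higher over all gated cells and 6 lower (median -0.13). The backgrounds over all genes were 11.2% higher and 21.6% lower, with a median of -0.05. The receptor chains went opposite ways, Ifngr1 from 469.7 to 929.7 CPM (1.98) and Ifngr2 from 25.8 to 12.2 CPM (0.472). The feedback inhibitor Socs1 (73.9 and 29.0 CPM, 0.392) and the chemokine gene Cxcl10 (164.9 and 71.2 CPM, 0.432) were lower, and Irf8 (940 and 5038 UMIs, 2.00) and Cxcl9 (2.11) higher. Of the 774 Cxcl9 UMIs of CD163_FL, 480 were in the NK and ILC1 gate that held cells with dendritic cell genes. Of 14 genes of other T cell programs, 4 were higher and 5 lower (median -0.25), against the same backgrounds. Foxp3 (0.233) and Il10 (150.4 and 42.6 CPM, 0.283) were among the lower, and Il17f (2.08), Il5 (1.86) and Il22 (1.77) among the higher. Foxp3 and Il17f also served to divide T cells, and Il5 and Il22 to pick innate cells. The pooled values of Il5 and Il22 therefore depend on the innate gates. Of the 799 Il5 UMIs of CD163_FL, 747 were in the ILC2 gate, as were 157 of 160 in CD163_NC.

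Myeloid cells are one source of cytokines that act on these receptors. Of 8 ligand and inhibitor genes measured in the myeloid gate (563 and 1032 cells), 5 were higher and 1 lower in CD163_FL, with a median log2 ratio of 0.89 against -0.39 for all genes of the gate, of which 18.1% were called higher and 42.3% lower. Il12b, the shared subunit of interleukin-12 and interleukin-23, had 12 UMIs (1.86 CPM) in CD163_NC and 468 (54.7 CPM) in CD163_FL, a ratio of 29.4 (16.7 to 57.3). Il12a, the other interleukin-12 subunit, had 9 and 80 UMIs (6.70, 3.36 to 15.2), and Il15 stood at 37.8 and 87.9 CPM (2.32, 2.01 to 2.69). Il18, the ligand of the receptor made of IL18R1 and IL18RAP, was among the 8 genes, but its value is not reported here. The makeup of the myeloid gate was not set equal between the libraries.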

How the data were processed

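The deposited matrices hold raw UMI counts (genes by barcodes) and name Cell Ranger 7.1.0 per the file headers. The submitters' processing notes name mm10 and Seurat 4. The annotation release and any free RNA correction were not given in the sources used here. Cells needed at least 500 UMIs, 200 genes and at most 10% mitochondrial UMIs, which removed 8 and 370 barcodes of CD163_NC and 22 and 869 of CD163_FL (low counts, then mitochondrial). Scrublet in scanpy 1.11.5, with an expected rate set per library after its default called 0 doublets in CD163_NC, marked 2.47% and 4.40%, below the 8.31% and 12.2% expected, and these were removed. Lymphoid gates excluded cells with over 2 UMIs of B cell, myeloid, mast or epithelial genes or over 10% immunoglobulin UMIs. Of 49 barcodes shared between the libraries, none was removed.

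Levels are CPM of summed counts, shares have Clopper-Pearson intervals, and thinning drew 2000 UMIs per cell without replacement, leaving out 43 and 88 gated cells. The 6 members were always named. Some genes of the gates and lists are not reported here. Of each list and gate, up to 3 genes each way were eligible, with at least 50 UMIs in the higher library and a ratio interval outside 1.5-fold, and for likeness the top 3 by Pearson r (Spearman and a pseudocount of 10 CPM also computed). Members, lists and gates were chosen with earlier results of these data known. The name Lef1-gated, the check for dendritic cell genes and the threshold of 5 UMIs were chosen after values were seen. No test was possible with 1 library per group. The ratio and share code was tested on simulated data. Python 3.11.15, numpy 2.4.6, scipy 1.17.1 and pandas 2.3.3 were used.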

Additional observations from a re-analysis of the deposited data

Results flagged for a closer look

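Between gates of the same libraries, Ifng and Eomes had log2 ratios (CD163_FL over CD163_NC) of opposite sign, each with a counting interval outside 1.5-fold. The differences between gates were not tested. For Ifng the values were 1.24 in CD4 Lef1-gated cells and 1.49 in ILC2, against -1.57 in CD8αβ other cells, -1.46 in CD8α-only cells and -0.96 in NK and ILC1 cells. From thinned cells the values of CD4 Lef1-gated cells and ILC2 were 0.36 and -0.041, within 1.5-fold. For Eomes the value was -2.71 in CD4 Lef1-gated cells, against 1.76 in T cells without a coreceptor and 1.41 in NK and ILC1 cells.

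Signal of the members was also present in cells outside the lymphoid gates. Stat4 in B cells stood at 249.4 CPM in CD163_NC and 494.0 CPM in CD163_FL, above the plasma cells of the same library. Tbx21 in B cells stood at 10.2 and 17.9 CPM, also above the plasma cells. Il18rap stood at 27.4 and 48.1 CPM in myeloid cells and at 55.5 and 59.8 CPM in the mast cell gate (34 and 39 cells), and Il18r1 at 34.7 and 79.0 CPM in that gate, each above the B cells.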

How the results depend on the processing

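Each group has 1 library, so that no paired analysis was possible and no library could be left out in turn. Over 14 alternative settings, the 54 log2 ratios of the 6 genes in 8 gates and over all gated cells gave 701 values, of which 580 lay within the counting interval of the reported value, 119 moved outside it and 2 turned the direction of a difference past 1.5-fold. These were Ifng (-0.041) and Tbx21 (-0.44) in ILC2, with gates and levels on cells thinned to 2000 UMIs. A further 9 values had the opposite sign of a reported value within 1.5-fold: 4 of Stat4 with the B cell level subtracted, 3 from thinned cells (Tbx21 in CD4 Lef1-gated cells, Eomes in both CD8αβ gates), and Eomes in CD8αβ Lef1-gated cells with median ratio scaling and without cycling cells. The pooled log2 ratio of Ifng, -0.69 as reported, was -0.64 with median ratio scaling, -1.01 as a mean of per-cell CPM, -0.81 with 0 UMIs of the exclusion lists allowed and -1.09 from thinned cells. It was -0.97 without cycling cells, and, in settings chosen after seeing the data, -0.44 with no lineage exclusion and -0.89 with the gates at one makeup. With no lineage exclusion 1 member in place of 2 was called lower over all gated cells. The numbers of gates in which Ifng and Tbx21 were lower and Il18r1 and Il18rap higher stayed within 1.5 times in every setting. That leaves out the gates in which Ifng was called higher. From thinned cells neither of those stayed past 1.5-fold (log2 ratios of 0.36 in CD4 Lef1-gated cells and -0.041 in ILC2). The ratio of thinned shares of cells with Ifng, 0.733, was 0.977 unthinned and 0.644 at 1000 UMIs per cell. The ratio of Ifng shares with over without Tbx21 in CD163_NC, 1.98, was 2.27 unthinned. Depth limits Eomes most, with under 50 UMIs per library in several gates, and the NK and ILC1 gate of CD163_NC has 106 cells.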
